A study of Homo sapiens with 42 samples.

Results

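Extracellular signals that reach the RAS, RAF, MEK and ERK kinases also switch on genes, some of which restrain the same pathway. A set of 9 such induced genes, called feedback genes here, was examined: DUSP4, DUSP5, DUSP6, SPRY2, SPRY4, SPRED1, ETV4, ETV5 and PHLDA1. The DUSP proteins are phosphatases that remove phosphate from MAP kinases, the Sprouty and SPRED proteins act upstream of the kinases, ETV4 and ETV5 are ETS-family transcription factors whose transcription follows ERK activity, and PHLDA1 is a pleckstrin-homology-like protein induced by the same signal. Transcription of such genes is used as a readout of pathway output in tumour cells. Chromatin was measured by ATAC-seq, in which a transposase cuts and tags open DNA, and the deposited data are lists of peaks, the places where cuts pile up. A peak was counted at a gene when its summit lay inside the gene or within 100 kb of it. These 9 genes were taken from 19974 protein-coding genes on chromosomes 1 to 22 and X, and each of the 42 samples had between 102 and 342 peaks (median 223) at the 9 loci together.

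The samples came from 7 human tumour lines. A375 is a melanoma line and 92-1 one of uveal melanoma, DU4475 comes from an invasive breast carcinoma, HCT116 from a colorectal and 22RV1 from a prostate adenocarcinoma, RD from a rhabdomyosarcoma, and MV411 from acute myeloid leukaemia. Each was exposed for 4 h either to the solvent DMSO or to FHT-1015, which inhibits SMARCA4 and SMARCA2, the ATPases that drive the BAF chromatin remodelling complexes; no dose is stated in the sources used here. There were 3 samples per group, labelled as biological replicates, and every sample carries the genotype label WT. As background, A375 and DU4475 are known to carry a BRAF mutation, RD an NRAS mutation, 92-1 a GNAQ mutation and MV411 an internal tandem duplication of FLT3, so the pathway is entered at different points; the label WT says nothing of these. The design text of the series names the lines other than MV411. Each line is 1 clone or population, so the differences below are between these lines and not between tumour types.

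The lists differed in depth. They held 114291 to 431956 peaks, and the peaks with a −log10 q of at least 5, called strict peaks here, numbered 1412 to 121774 per sample. The background pileup, recovered from the peak columns, is the background value shared by the largest number of peaks in a list. It was used as a measure of depth and ran from 0.0341 to 2.79. In MV411 it was 0.454 ± 0.0487 (SD, n = 3) with DMSO and 0.266 ± 0.00513 with FHT-1015. FHT-1015 replicates 2 and 3 of 92-1 had the lowest values of the series, 0.0346 and 0.0341. In 22RV1 it went the other way, 0.633 ± 0.0892 with DMSO and 0.894 ± 0.126 with FHT-1015. Results are therefore given on strict peaks, which are set by a fixed threshold, and on the 50000 strongest peaks of each sample, which give every sample a list of equal length. Of 18 lineage markers examined in the untreated samples, 11 had more peaks in the line they mark than in the other lines, and 7 did not, among them CDX2 in HCT116 and SPI1 in MV411.

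Coordinates below are GRCh38. The phosphatase genes are DUSP4 at chr8:29333064-29350684, DUSP5 at chr10:110497907-110511533 and DUSP6 at chr12:89347235-89352501.

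The inhibitors are SPRY2 at chr13:80335976-80341126, SPRY4 at chr5:142310430-142325021 and SPRED1 at chr15:38252836-38357249. ETV4 lies at chr17:43527846-43546340, ETV5 at chr3:186046314-186109089 and PHLDA1 at chr12:76025447-76031776. Only the windows of SPRY2 and SPRY4 hold no other protein-coding gene. The other windows also hold KIF13B (DUSP4), SMC3 (DUSP5), POC1B and the read-through gene POC1B-DUSP6 (DUSP6), FAM98B (SPRED1), DHX8 and MEOX1 (ETV4), DGKG (ETV5) and NAP1L1 (PHLDA1), so a peak counted there cannot be assigned to the feedback gene.

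Of the promoters, 3 are shown, those with a strict peak within 1 kb of the start in the most samples. Each is the 250 bases before the gene's farthest upstream RefSeq start (GRCh38.p14), read 5′ to 3′ on the minus strand, on which all 3 genes lie. Capitals mark matches to the ETS core CCGGAA on either strand. The stretches lie at chr12:89352502-89352751 for DUSP6, chr13:80341127-80341376 for SPRY2 and chr12:76031777-76032026 for PHLDA1.
DUSP6: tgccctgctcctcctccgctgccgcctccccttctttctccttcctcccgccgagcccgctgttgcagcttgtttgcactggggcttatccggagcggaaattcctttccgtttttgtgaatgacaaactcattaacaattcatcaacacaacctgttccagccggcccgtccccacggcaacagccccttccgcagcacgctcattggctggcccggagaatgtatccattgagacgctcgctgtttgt
SPRY2: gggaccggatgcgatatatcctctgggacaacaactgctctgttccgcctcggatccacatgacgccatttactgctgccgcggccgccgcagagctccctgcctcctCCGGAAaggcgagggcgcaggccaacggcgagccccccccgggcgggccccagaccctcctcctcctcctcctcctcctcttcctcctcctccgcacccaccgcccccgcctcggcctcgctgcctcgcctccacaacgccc
PHLDA1: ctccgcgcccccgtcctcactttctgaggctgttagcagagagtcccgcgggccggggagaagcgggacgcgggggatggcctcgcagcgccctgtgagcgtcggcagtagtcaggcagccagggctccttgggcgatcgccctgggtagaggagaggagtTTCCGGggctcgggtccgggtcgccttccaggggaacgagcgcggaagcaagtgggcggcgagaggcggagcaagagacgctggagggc
SPRY2 held 1 ETS match, 142 to 137 bases before the start, and PHLDA1 held 1 on the other strand, 89 to 84 bases before the start; DUSP6, and the same stretch of SPRY4 and SPRED1, held none. None of these 5 promoters held the AP-1 letters TGANTCA or the CRE letters TGACGTCA on either strand. Among 34943 RefSeq promoters searched over the same 250 bases, 14.5% held CCGGAA, 6.59% TGANTCA and 1.63% TGACGTCA, so 2 of 5 with an ETS match describes these genes and no more. The G and C content was 57.2% for DUSP6 and 70.4% for both SPRY2 and PHLDA1. Counted from the start, with negative positions before it, the strongest peak within 1 kb had its summit at a median of −37.5 bases for DUSP6, −246.5 for SPRY2 and 102.5 for PHLDA1. It was a strict peak in 39 of 42 samples for DUSP6, 41 for SPRY2 and 34 for PHLDA1. At SPRY4, whose tabulated start lies inside the gene, and SPRED1 the median summit lay farther out, at −833 and −865 bases.

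With strict peaks, all 9 loci had fewer peaks after FHT-1015 over the 7 lines, and all 9 passed as lower at an adjusted p of 0.05. Among the 50000 strongest peaks of each sample none of the 9 passed, with a median difference of −0.429 peaks. The largest differences with strict peaks were at DUSP5, which went from a mean of 13 to 8.24 peaks (−4.81 ± 2.42, SD over 7 lines; lower in 7 of 7 lines; adjusted p = 0.000442), and SPRY4, from 8.24 to 4.62 (−3.62 ± 1.74; lower in 7 of 7; adjusted p = 0.00115). The p-values are from an exact two-sided permutation of treatment labels within each line, adjusted by the Benjamini-Hochberg method over all 19974 genes. All 9 of the feedback genes passed at an adjusted p of 0.05, but so did 66.5% of all genes, and 0% of genes rose. The median difference was −3.05 peaks for the 9 loci and −2.10 for all genes. DUSP6 fell in 7 of 7 lines (−3.05, adjusted p = 0.0156), PHLDA1 in 6 (−3.05, adjusted p = 0.00799), and SPRED1 in 6 (−2.67, adjusted p = 0.0132). ETV4 fell by 2.29 peaks and ETV5 by 2.33, each lower in 6 lines. Without MV411, when 39% of all genes passed, the call held for DUSP4, DUSP5, SPRY4, ETV4 and ETV5, and was lost for DUSP6 (adjusted p = 0.19), SPRY2 (0.0864), SPRED1 (0.0749) and PHLDA1 (0.104).

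In MV411 and 92-1 the mean background pileup moved with this result. In 22RV1, RD and A375 it moved the other way, from 1.04 to 1.28 in RD and from 0.729 to 1.11 in A375. The mean number of strict peaks per sample was lower with FHT-1015 in these lines. In DU4475 the background pileup went from 2.13 to 2.15, and mean strict peaks from 54756 to 40501. In HCT116 it went from 0.227 to 0.224, and mean strict peaks from 24275 to 22955. Lists were also thinned so that all samples of a line had the same background pileup, in the 6 lines other than 92-1. The background of 92-1 was too low to thin. In thinned lists 8 of the 9 loci passed as lower, against 49.1% of all genes, and 0 as higher, against 0.00501%. PHLDA1 did not pass (adjusted p = 0.0655, exact permutation). Thinning matched only the background pileup, and the part of depth in the strict counts was not tested. In the lists of the 50000 strongest peaks none of the 9 passed in either direction, against 3.45% of all genes lower and 12.3% higher. At an unadjusted p under 0.05 the exact test gave 1 of the 9 (30.5% of all genes, both directions), and limma's mean contrast over the lines gave 0 after adjustment (4.35% of all genes lower and 10% higher). Of the 25000 strongest peaks, ETV5 had fewer (−0.67, adjusted p = 0.0475, exact permutation; 4.66% of all genes were lower and 21.5% higher). Among the 50000 strongest the median gene had 0.381 peaks more after FHT-1015, and the median of the 9 loci was 0.429 peaks fewer.

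**Figure D1:**
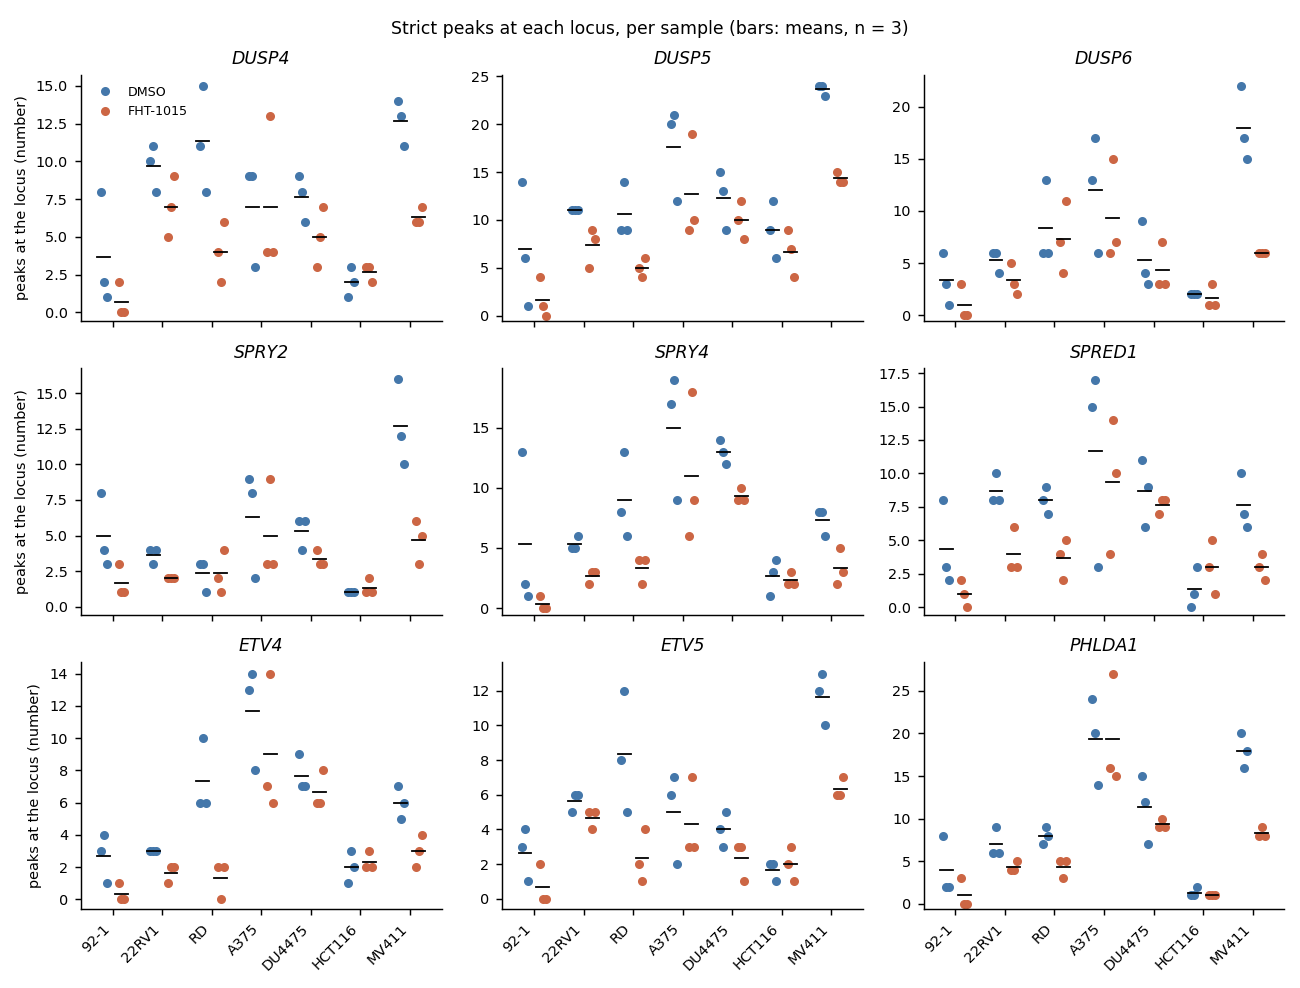
Number of strict peaks at each of the 9 loci (vertical axis) in each of the 42 samples, by line, with DMSO in blue and FHT-1015 in orange; black bars are means of 3 samples. The MV411 samples separate at all 9 loci, while the groups overlap at all 9 in 92-1, A375 and HCT116.

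The lines differed in where the treated and control samples separated. In MV411, strict counts of the 3 FHT-1015 samples lay below those of the 3 DMSO samples at 9 of 9 loci, against 74.1% of all genes. In RD this was so at 7 loci (52.5% of genes), in 22RV1 at 6 (37.8%), in DU4475 at 1 (16.3%), and in A375, HCT116 and 92-1 at 0 (1.09%, 2.38% and 8.86%). No locus separated in the other direction in any line, where the share of all genes was at most 2.11%, in HCT116, and 0.01% in RD. With 3 against 3 samples an exact permutation test within a line cannot go below 0.1, so these are descriptions. In the thinned lists the counts were 7 in MV411 (26.5% of genes), 5 in RD (43%), 5 in 22RV1 (41.7%), 1 in DU4475 (8.79%) and 0 in A375 (8%) and HCT116 (1.51%), and 0 loci separated upward, as 0.03% of genes did in 22RV1, 0.0401% in RD, 0.0851% in A375, 0.781% in DU4475, 1.6% in HCT116 and 1.94% in MV411. A375 and DU4475, the lines with a BRAF mutation, had 0 and 1 separated loci on both scales; a difference by mutation was not tested.

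DUSP4 and DUSP5 encode nuclear phosphatases. At DUSP5 the MV411 samples had 24, 24 and 23 strict peaks with DMSO and 15, 14 and 14 with FHT-1015. The RD samples had 9, 14 and 9 against 5, 4 and 6, and the 22RV1 samples 11 in each against 5, 9 and 8. All treated samples were below all control samples in these 3 lines. In A375 the strict counts were 20, 21 and 12 against 9, 19 and 10, and the groups overlapped. Among the 50000 strongest peaks it was A375 that separated, with 18 in each DMSO sample and 11, 15 and 13 with FHT-1015 (such separation downward occurred at 4.98% of genes), and MV411 that overlapped, with 14, 12 and 12 against 15, 14 and 12. The exact test over the 7 lines gave −1.52 peaks for DUSP5 on that scale (adjusted p = 0.191).

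DUSP4 separated in RD, with 11, 15 and 8 strict peaks against 4, 2 and 6, and in MV411, with 14, 13 and 11 against 6, 6 and 7. In 22RV1 it did not, with 10, 11 and 8 against 5, 7 and 9. Over the lines its equal-length difference was 0.10 peaks (adjusted p = 1), and in A375 it separated upward, from 8, 8 and 5 to 10, 11 and 9, as 22% of genes did in that line. HCT116 had few strict peaks at DUSP4, 1, 3 and 2 against 3, 3 and 2. The groups there overlapped.

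DUSP6 encodes the cytoplasmic phosphatase with a preference for ERK. In MV411 it had 22, 17 and 15 strict peaks with DMSO and 6 in each FHT-1015 sample, the largest drop of any locus and line (−12 peaks). Among the 50000 strongest peaks the MV411 groups overlapped, with 5, 7 and 7 against 6, 6 and 5. In RD the strict counts were 6, 13 and 6 against 7, 4 and 11, and in A375 13, 17 and 6 against 6, 15 and 7. Both overlapped. The mean equal-length difference over the 7 lines was 0.05 peaks (adjusted p = 1).

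SPRY2 and SPRY4 encode Sprouty proteins, which block signalling between receptor tyrosine kinases and RAF. At SPRY4 the RD samples had 8, 13 and 6 strict peaks against 4, 2 and 4. The 22RV1 samples had 5, 5 and 6 against 2, 3 and 3, and the DU4475 samples 14, 13 and 12 against 9, 10 and 9. With MV411 (8, 8 and 6 against 2, 5 and 3), SPRY4 separated in 4 lines. It was the only one of the 9 loci to separate in DU4475. It was also the locus nearest to the threshold on lists of equal length, at −1.29 ± 1.21 peaks (SD over 7 lines), lower in 6 of 7 lines (p = 0.0103 and adjusted p = 0.0594, exact permutation). That call rested on single samples: SPRY4 passed when DMSO replicate 2, FHT-1015 replicate 2 or FHT-1015 replicate 3 of 92-1 was left out (adjusted p = 0.0357, 0.0308 and 0.0406), and likewise without the third RD DMSO sample (0.0389), the third A375 DMSO or FHT-1015 sample (0.0404 and 0.0271) or the second MV411 FHT-1015 sample (0.0283). It also passed without 92-1 as a whole (−1.39 peaks over 6 lines, adjusted p = 0.0378).

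In MV411 SPRY2 had 16, 12 and 10 strict peaks with DMSO and 6, 3 and 5 with FHT-1015. In 22RV1 it had 4, 3 and 4 against 2 in each sample. Both pairs of groups were apart. In HCT116 each DMSO sample had 1 strict peak and the treated samples 1, 2 and 1. SPRY2 was the only one of the 9 loci whose change among the 50000 strongest peaks differed between lines by limma's F test (adjusted p = 0.0477, a test passed by 12.6% of genes). The difference rested on 92-1, where the counts went from 8, 4 and 7 to 3, 1 and 1 (log2 difference −1.50 ± 0.34, SE; adjusted p = 0.0012), while the other lines had log2 differences that did not pass. Without 92-1 no locus passed this test, and with strict peaks none did either (0.675% of genes passed). It also failed without MV411, and passed in only 6 of the 42 omissions of a single sample.

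In 92-1 limma called 5 of the 9 loci lower among the 50000 strongest peaks, against 26.9% of all genes, and 0 higher, against 10.6%. Besides SPRY2 these were PHLDA1 (−1.44 ± 0.33, SE, adjusted p = 0.00128), DUSP6 (−1.30, adjusted p = 0.00721), DUSP5 (adjusted p = 0.015) and SPRED1 (−0.90, adjusted p = 0.0265). At these 5 loci the lowest counts were in FHT-1015 replicates 2 and 3, the same ones with the lowest background. At SPRY2 replicate 1 was also below all controls. At SPRY4 replicates 2 and 3 had 8 and 7 peaks (8, 5 and 7 with DMSO), and at ETV5 7 and 13 (2, 7 and 6). They had 1 and 8 at DUSP4 (5, 5 and 4) and 0 in each at ETV4 (0, 5 and 1). DUSP5 had 9, 10 and 6 peaks with DMSO and 11, 3 and 1 with FHT-1015; PHLDA1 had 7, 4 and 5 against 5, 1 and 0. Without FHT-1015 replicate 2 the calls were 2 (SPRY2, adjusted p = 0.0135, and PHLDA1, 0.011), when 11.6% of all genes were called lower, without replicate 3 they were 3 (DUSP6, SPRY2 and PHLDA1; 9.47%), and without replicate 1 they were 6 (50.3%). Leaving out DMSO replicate 1 or 2 gave 3 (18.2% and 23.2%). In the other 6 lines limma called none of the 9 loci in either direction, where it called 0% to 0.8% of genes lower and 0% to 3.36% higher.

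SPRED1 encodes a Sprouty-related protein that brings neurofibromin to RAS. It separated in 22RV1, with 8, 10 and 8 strict peaks against 3, 6 and 3, in RD, with 8, 9 and 7 against 4, 2 and 5, and in MV411, with 10, 7 and 6 against 3, 4 and 2. In HCT116 the mean was higher after treatment, 0, 1 and 3 peaks against 3, 5 and 1, with overlap. In DU4475 the groups also overlapped, at 11, 6 and 9 against 7, 8 and 8.

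The ETS factor genes ETV4 and ETV5 both separated in RD. ETV4 had 6, 10 and 6 strict peaks there with DMSO and 2, 0 and 2 with FHT-1015 (limma log2 difference −1.97 ± 0.42, SE, adjusted p = 0.0012). ETV5 had 8, 12 and 5 against 2, 1 and 4 (−1.52 ± 0.44, adjusted p = 0.0136). With DUSP4 (−1.35, adjusted p = 0.0337) these were the 3 loci limma called in RD with strict peaks, where it called 22.4% of all genes lower, and all 9 were called in 92-1, where 59.4% were. ETV5 pointed in opposite directions in equal-length lists: 9, 12 and 7 peaks against 5, 4 and 5 in RD, and 4, 4 and 5 against 7, 6 and 7 in 22RV1. Both pairs of groups were apart, as they were downward at 7.63% of genes in RD and upward at 13.8% in 22RV1. Limma's test of a difference between lines did not pass for ETV5 (adjusted p = 0.498).

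PHLDA1, the pleckstrin-homology-like protein gene, had 20, 16 and 18 strict peaks in MV411 with DMSO and 8, 9 and 8 with the inhibitor. In RD it had 7, 9 and 8 against 5, 3 and 5, and in 22RV1 6, 9 and 6 against 4, 4 and 5. Treated samples were below control samples in all 3 lines. In A375 the groups had the same mean of 19.3 strict peaks, from 24, 20 and 14 with DMSO and 16, 27 and 15 with FHT-1015.

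On equal-length lists few loci separated in any line. Downward these were SPRY2 in 92-1 (5.09% of all genes), SPRY4 in 22RV1 (6.84%), ETV5 in RD and DUSP5 in A375, and none in DU4475 (4.07%), HCT116 (2.42%) or MV411 (4.81%). Upward these were ETV5 in 22RV1 and DUSP4 in A375, and none in 92-1 (6.25%), RD (8.02%), DU4475 (8.09%), HCT116 (3.18%) or MV411 (24.6%).

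**Figure D2:**
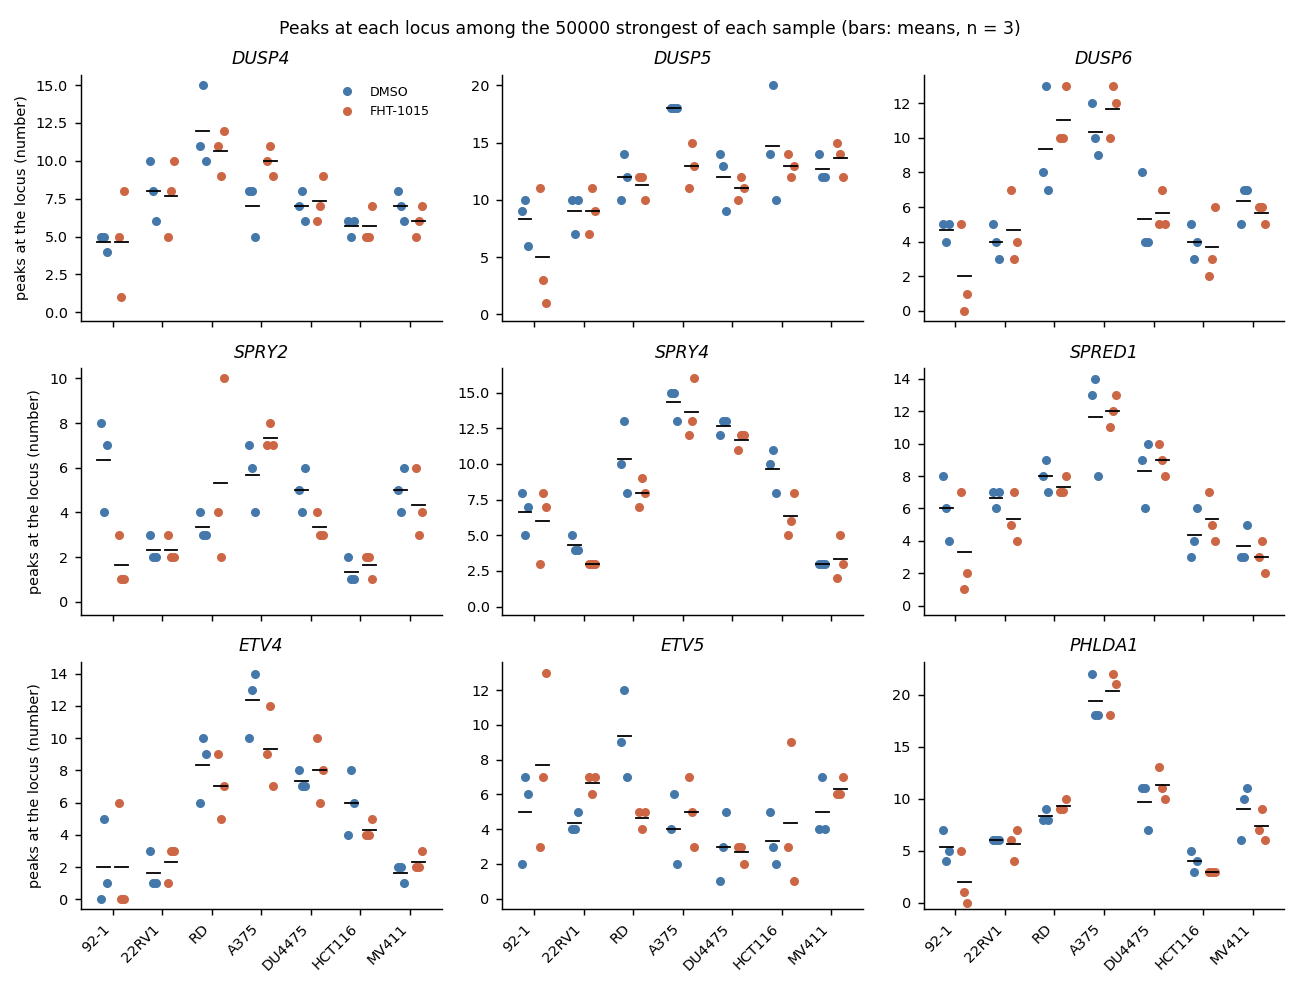
Number of peaks at each locus (vertical axis) among the 50000 strongest of each sample, by line, with DMSO in blue and FHT-1015 in orange; black bars are means of 3 samples. The groups overlap in all but 6 of the locus and line pairs: DUSP5 and DUSP4 in A375, SPRY4 and ETV5 in 22RV1, ETV5 in RD and SPRY2 in 92-1.

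The loss of strict peaks was then followed region by region. Strict peaks of all samples were merged into 315054 regions of 500 bp, of which 299 lay at the 9 loci: 52 at DUSP5, 43 at PHLDA1, 39 at DUSP6, 32 at DUSP4, 31 each at SPRY4 and ETV5, 25 at SPRY2 and 23 each at SPRED1 and ETV4. Of these 299 regions, 229 were called in more DMSO than FHT-1015 samples, 40 in more FHT-1015 samples and 30 in equal numbers. Calls in at most 2 of the 14 groups were found at 191. The same shares over all 315054 regions were not counted, so these numbers do not set the 9 loci apart from other regions. No single region at the 9 loci passed the exact permutation test over the 7 lines after adjustment over all regions (lowest adjusted p = 0.383); over the genome 4 regions passed as less often called (0.00127% of them) and 0 as more often. At an unadjusted p under 0.05, 19 of the 299 were less often called, against 2.82% of all regions, and 0 more often, against 0.0197%.

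A region is termed lost in a line when every DMSO sample has the call and every treated sample lacks it. In MV411 26 of the 78 regions with a call in every DMSO sample at the 9 loci were lost (33.3%, against 33% of all regions in that line). The losses were spread over all 9 loci, by share from 3 of 5 regions at SPRED1 to 3 of 19 at DUSP5. They were 4 of 9 at DUSP6, 4 of 12 at PHLDA1 and 1 of 4 at ETV4. In 22RV1 7 of 34 were lost (20.6% against 26.4%) and in RD 8 of 44 (18.2% against 20.8%). In 92-1 5 of 9 were lost (55.6% against 40.4%). Without the deepest treated sample of 92-1, FHT-1015 replicate 1, it was 8 of 9 (88.9% against 83%). Losses were few in A375, 2 of 50 (4% against 7.49%), DU4475, 2 of 42 (4.76% against 6.7%), and HCT116, 1 of 11 (9.09% against 5.88%). These low shares moved with single samples. In A375 12 of 50 were lost without FHT-1015 replicate 2 (24% against 18.6%) and 17 of 82 without DMSO replicate 3 (20.7% against 18.8%). In DU4475 it was 5 of 46 without DMSO replicate 2 (10.9% against 11.7%) and 5 of 49 without DMSO replicate 3 (10.2% against 10.9%). In HCT116 2 were lost without DMSO replicate 2 (16.7% against 9.16%), DMSO replicate 3 (15.4% against 8.91%) or FHT-1015 replicate 2 (18.2% against 10.1%). Gains, the reverse pattern, numbered 2, against 732 over the genome: 1 at PHLDA1 in RD and 1 at SPRED1 in HCT116.

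Regions near gene ends were rarely lost, while distal regions were lost about as often as they were fully kept. Of the 299 regions, 38 lay within 1 kb of an end of a protein-coding gene and 261 lay farther away. In sums over the lines a region counts once for each line in which all DMSO samples had it. Summed in this way, 1 of 126 gene-end regions called in all DMSO samples was lost (0.794%). Another 105 were called in all FHT-1015 samples as well (83.3%). Of 142 distal regions 50 were lost (35.2%) and 48 fully kept (33.8%). The same split held over the genome, with 4.14% of gene-end and 33% of distal regions lost. Distal losses at the 9 loci were 25 of 59 in MV411 (42.4%, against 38.1% of all distal regions in that line), 8 of 16 in RD (50% against 39.5%), 7 of 15 in 22RV1 (46.7% against 36%) and 5 of 5 in 92-1 (against 56.4%). They were 2 of 27 in A375 (7.41% against 14.6%), 2 of 16 in DU4475 (12.5% against 13.9%) and 1 of 4 in HCT116 (25% against 11.3%). The split was also present in lists of equal length, in which 3 of 146 gene-end regions (2.05%, against 1.98% of all) and 33 of 116 distal regions (28.4% against 21.1%) were lost, and in thinned lists, with 1 of 106 (0.943% against 4.07%) and 23 of 75 (30.7% against 27.5%).

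**Figure D3:**
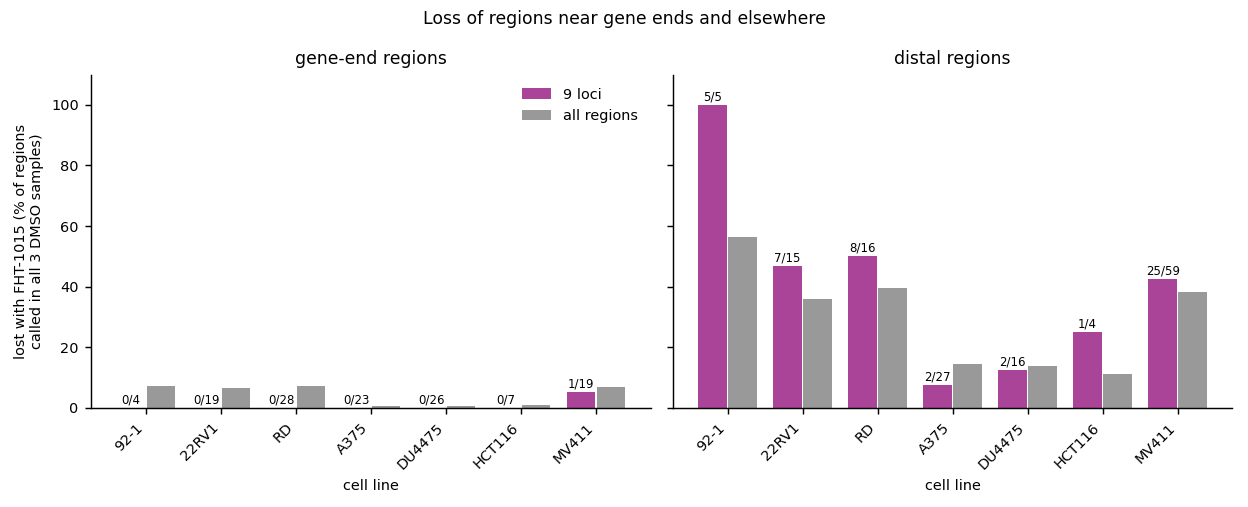
Share of regions called in all 3 DMSO samples of a line that were called in no FHT-1015 sample (vertical axis, %), for regions within 1 kb of a gene end (left) and all others (right), with the 9 loci in purple and all regions of the genome in grey; numbers above the purple bars are lost regions over regions at risk. Gene-end regions at the 9 loci were lost once, in MV411, while distal losses reached 25 of 59 there and 2 of 27 in A375.

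At the gene itself the number of calls with and without the inhibitor differed by at most 3 samples. These regions were chosen as the ones called in most samples of both treatments, which limits how far the numbers can differ. The region at the DUSP6 start (chr12:89352250-89352749) was called in 21 of 21 DMSO and 18 of 21 FHT-1015 samples, and that of SPRY2 (chr13:80341117-80341616) in 21 and 20. The regions at the gene ends of DUSP4 (chr8:29350678-29351177), DUSP5 (chr10:110497615-110498114) and ETV5 (chr3:186108925-186109424) had 18 and 19, 20 and 18, and 20 and 19 calls. ETV4 (chr17:43546159-43546658) had 17 and 16, SPRY4 (chr5:142324804-142325303) 16 and 17, PHLDA1 (chr12:76031279-76031778) 17 in each, and SPRED1 (chr15:38251676-38252175) 15 and 14. Most of the missing calls were in 92-1, in either treatment. HCT116 also had few calls at SPRED1 and PHLDA1, 1 of 3 samples in each group, and at SPRY4, none against 2, and MV411 had 1 of 3 in each group at SPRED1.

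Away from the gene (below it at lower coordinates, above it at higher ones), the regions with the largest excess of DMSO calls were open in different sets of lines. The region 47.3 kb below PHLDA1 (chr12:75977861-75978360) had the smallest p of the 299 (0.00034, exact permutation, adjusted p = 0.383), with 18 DMSO and 7 FHT-1015 calls. It was called in all 3 control samples and 0 treated samples of 92-1 and 22RV1, in 2 against 0 in RD and HCT116, and in 2 against 1 in DU4475. In A375 and MV411 it was called in all 6 samples. MV411 kept this region although the strict count of the whole locus was lower in every treated MV411 sample. The other PHLDA1 region, 87.8 kb below the gene (chr12:75937404-75937903), was called in the 3 MV411 DMSO samples and nowhere else.

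The region 1.5 kb beyond the DUSP6 start (chr12:89353746-89354245, inside the read-through gene) showed another order. It was lost in HCT116 and MV411, 3 calls against 0 in each, and was called in all 6 samples of 22RV1, A375 and DU4475 and in 3 against 2 in RD. The start region beside it was called in all 6 samples of both HCT116 and MV411. A second DUSP6 region, 81.3 kb beyond the gene (chr12:89433588-89434087), was lost in MV411 and otherwise called in 1 A375 DMSO sample; it lies inside POC1B.

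At DUSP5 both named regions lay far below the gene. The one 99.1 kb away (chr10:110398568-110399067) was called in 13 DMSO samples against 3 and was lost in RD, and the one 83.1 kb away (chr10:110414583-110415082) was called in 10 against 1 and was lost in A375 and MV411. DUSP4 had a region 22.7 kb above it (chr8:29373122-29373621) that was lost in RD and MV411 and kept in all 6 samples of A375, and one 56.8 kb below it (chr8:29276002-29276501) with 9 against 1 calls over 5 lines. The closest gene end to the latter is that of KIF13B.

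The Sprouty loci had losses in other lines. At SPRY4 the region 94.2 kb below the gene (chr5:142215963-142216462) had 10 against 1 calls and was lost in RD, and the region 17.4 kb above it (chr5:142342200-142342699) had 9 against 2 and was lost in 22RV1 and DU4475, with 3 against 2 in A375. At SPRY2 the regions 95.8 kb and 20.9 kb above the gene (chr13:80436671-80437170 and chr13:80361803-80362302) had 7 against 1 and 9 against 4 calls, and both were lost in 92-1. The SPRED1 region 1.54 kb below its start (chr15:38251042-38251541) was lost in 22RV1, with 3 against 0 calls, and kept in all 6 samples of DU4475. A second SPRED1 region, 55.1 kb below (chr15:38197491-38197990), had 5 against 0 calls over 3 lines.

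In ETV4 a region inside the gene (chr17:43530230-43530729), which also lies in DHX8, had 8 against 1 calls and was lost in RD, and one 70.8 kb below it (chr17:43456790-43457289) had 6 against 0 and was lost in MV411. In ETV5 a region 86 kb below the gene (chr3:185960026-185960525) had 7 against 0 calls over 4 lines, and one inside the gene (chr3:186097748-186098247) had 11 against 5, with 3 against 1 in RD. Regions with at least 3 more FHT-1015 than DMSO calls were found at 2 loci: 45.7 kb above DUSP5 (chr10:110556954-110557453), with 3 against 7 calls and 1 against 3 in 22RV1, and 17.3 kb below DUSP4 (chr8:29315490-29315989), with 0 against 3. Neither p passed (0.212 and 0.2, exact permutation).

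**Figure D4:**
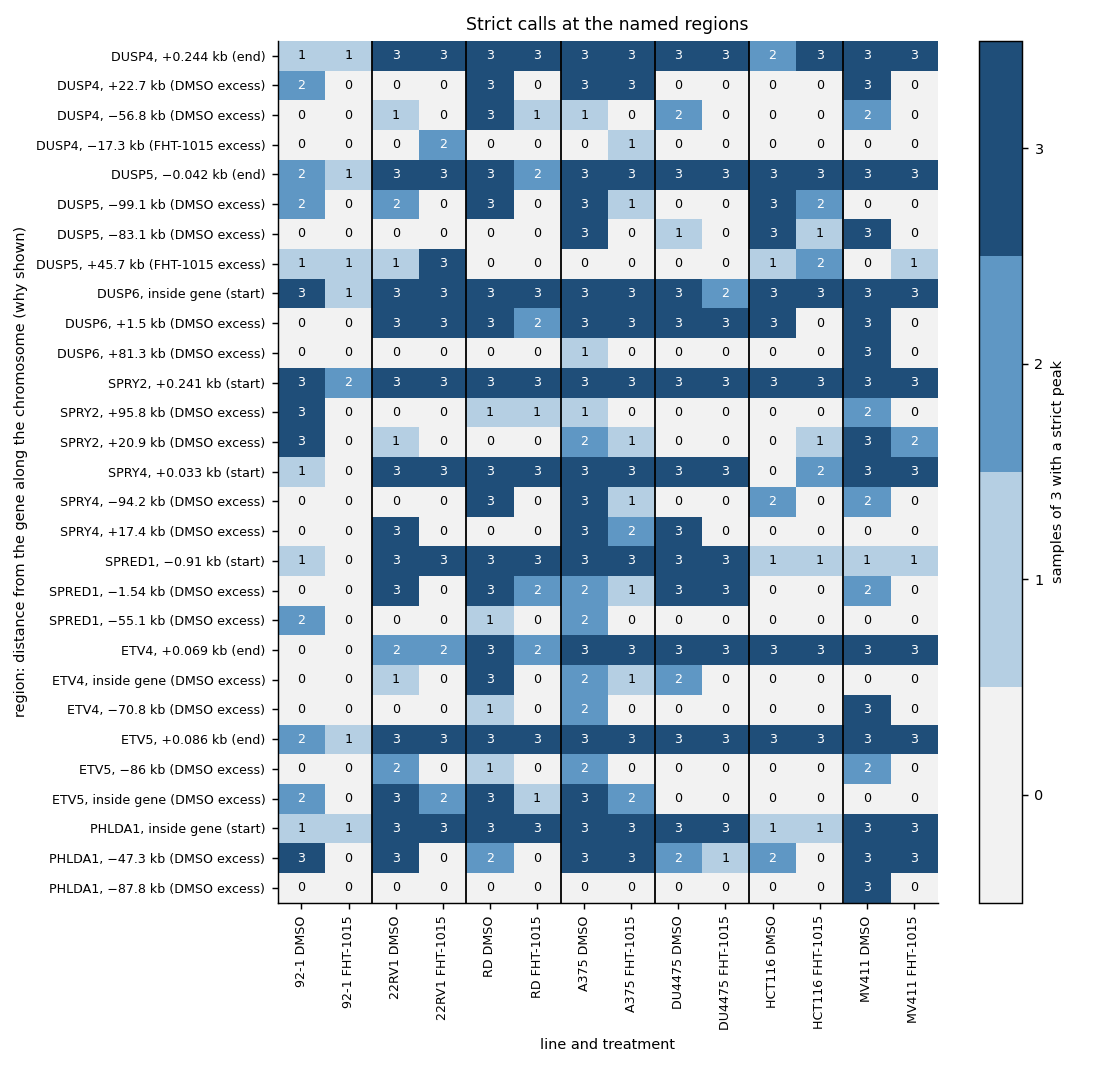
Number of samples of 3 with a strict peak (colour and digit) at the named regions (rows, with the distance below (−) or above (+) the gene along the chromosome) in each line and treatment (columns). Rows for gene starts and ends show like calls on both sides of each pair in most lines, while distal rows turn from dark to light in different lines. Start and end rows were chosen for the most calls and most others for their excess of DMSO calls, so their contrast is no test of position.

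The strength of the gene-end peak was compared by its rank in the lists of 50000, where a lower rank is a stronger peak; this test was added after the counts had been seen. Over the 7 lines the peak ranked higher after FHT-1015 at 25.4% of 11097 genes and lower at 2.97% by limma on log2 rank. Among the 9 loci 1 passed, ETV4 (−0.48 ± 0.18, SE, adjusted p = 0.0358), and 0 moved the other way. The median log2 difference was −0.39 for the 9 loci and −0.32 for all genes. A sample with no such peak was given the rank after the last. In A375 the ETV4 peak ranked 22953, 6093 and 7645 with DMSO and 4473, 1808 and 4155 with FHT-1015 (−1.66 ± 0.47, adjusted p = 0.0319; 2.85% of genes passed there). All 3 treated samples ranked ahead of all 3 controls. The A375 call did not pass without the first DMSO sample (adjusted p = 0.276) or the second FHT-1015 sample (0.216).

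The call for ETV4 over the lines did not pass without MV411 (adjusted p = 0.116) or when any of 7 single samples was left out (adjusted p between 0.0533 and 0.0694): the first 92-1, second 22RV1, first RD, second A375 or second MV411 FHT-1015 sample, or the first A375 or first HCT116 DMSO sample. Without 92-1, 5 loci passed as stronger (DUSP4, DUSP6, SPRED1, ETV4 and ETV5), as did 38.5% of genes. By median rank ETV5 had the strongest gene-end peak of the 9 in every line but 92-1, where SPRY2 led, and A375, where PHLDA1 did, with ranks of 648, 575 and 436 in untreated HCT116 and 1598, 1582 and 726 in untreated MV411. With FHT-1015 the MV411 samples ranked 683, 736 and 642, and those of 22RV1 went from 2685, 1040 and 1553 to 844, 438 and 831. The 22RV1 groups were apart. Other pairs of groups were apart in the same direction, among them ETV5 in RD, SPRED1 in 22RV1 and DUSP5 in MV411. SPRY4 in 92-1 went the other way, with ranks of 24163, 31026 and 14270 with DMSO and no such peak in any treated sample. The share of all genes whose gene-end ranks separated was not counted in any line, so these separations are descriptions. In DUSP6 the A375 peak ranked 9458, 20991 and 10081 with DMSO and 3475, 1885 and 4552 with FHT-1015, also apart (−2.02 ± 0.69, adjusted p = 0.0945).

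**Figure D5:**
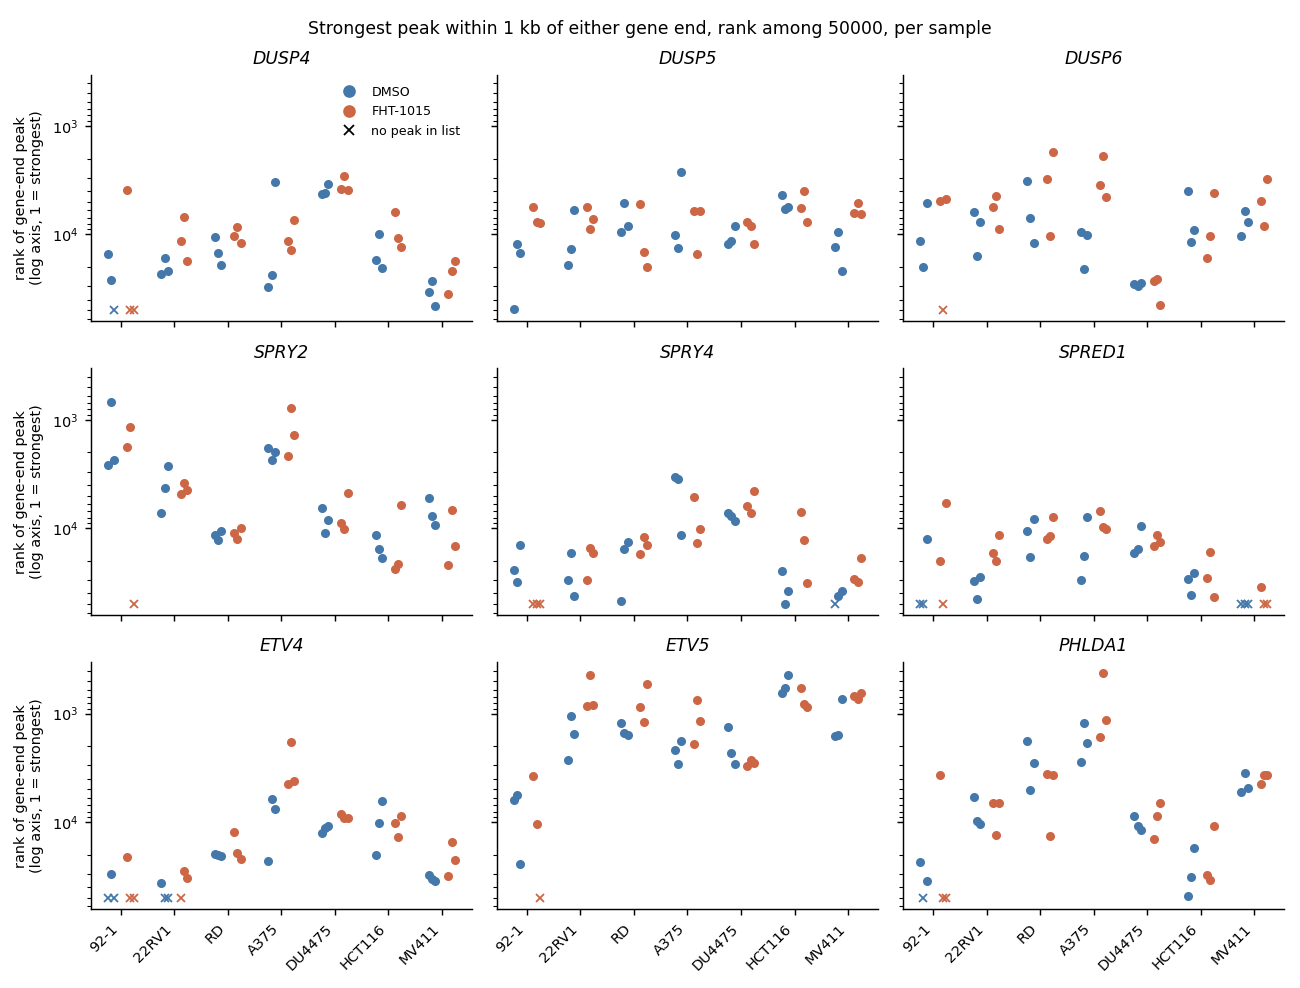
Rank of the strongest peak within 1 kb of either end of each gene among the 50000 strongest peaks of a sample (vertical log axis, strongest at the top), by line, with DMSO in blue, FHT-1015 in orange and crosses for samples with no such peak. In A375 the 3 treated samples of ETV4 and DUSP6 lie above the 3 controls, and the missing peaks are mostly in 92-1.

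Before treatment the loci differed between lines on equal-length lists, each of the 9 by limma's F test (adjusted p from 1.69e-09 for SPRY4 to 0.0196 for ETV5), but 95.5% of all genes did. Peak names carry the word small in 92-1, 22RV1, HCT116 and MV411 and not in RD, A375 and DU4475, and no source used here says what it means, so the tests between pairs of lines are given only within each of these sets. PHLDA1 had 22, 18 and 18 peaks in A375, above DU4475 with 11, 11 and 7 (log2 difference 0.95 ± 0.22, SE, adjusted p = 0.000998; 43.7% of genes differed) and RD with 8, 9 and 8 (adjusted p = 0.000235; 39.2%). DUSP5 was likewise highest in A375, with 18 in each sample against 10, 14 and 12 in RD and 14, 13 and 9 in DU4475. RD had the most at ETV5, with 9, 12 and 7 peaks (30.7% of genes differed between RD and DU4475), and at DUSP4, with 11, 15 and 10; A375 and DU4475 did not differ beyond their spread for either gene. With strict peaks none of these differences between RD, A375 and DU4475 passed: for PHLDA1 the adjusted p was 0.224 between A375 and DU4475 and 0.0742 between RD and A375, for DUSP5 0.542 and 0.453, and between RD and A375 it was 0.415 for DUSP4 and 0.385 for ETV5.

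In the other set SPRY4 had 10, 11 and 8 peaks in HCT116, above 92-1 with 8, 5 and 7, 22RV1 with 5, 4 and 4, and MV411 with 3 in each; the difference between the last 2 did not pass (adjusted p = 0.0874; 41.5% of genes passed). HCT116 and 92-1 differed for SPRY4 with an adjusted p of 0.0409 (44.2%), and HCT116 and MV411 with 3.65e-06 (45.2%). SPRY2 ran in another order, with 8, 4 and 7 peaks in 92-1 and 5, 4 and 6 in MV411, above 3, 2 and 2 in 22RV1 and 2, 1 and 1 in HCT116; neighbours in this order, 92-1 and MV411 (32.2% of genes) and 22RV1 and HCT116 (21.3%), did not differ by the test. ETV4 was highest in HCT116 (4, 8 and 6), and 92-1, 22RV1 and MV411 had means of 2, 1.67 and 1.67. With strict peaks the order of this set turned. HCT116 then had the fewest SPRY4 peaks, a mean of 2.67 against 5.33 in 92-1, 5.33 in 22RV1 and 7.33 in MV411 (HCT116 minus MV411 −1.28, log2, adjusted p = 0.0226), and the fewest ETV4 peaks, 2 against 2.67, 3 and 6 (HCT116 minus MV411 −1.27, adjusted p = 0.00573). For SPRY2 both pairs of neighbours differed by limma. The difference was −1.25 for 92-1 minus MV411 (adjusted p = 0.00999), where 88.3% of all genes differed. It was 1.21 for 22RV1 minus HCT116 (adjusted p = 0.0262), where 46.5% did. Between untreated HCT116 and MV411 77.6% of all genes differed with strict peaks, so the order of these lines depends on the lists used.

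Other genes of the pathway had medians near those of all genes. Of 18 further feedback genes, 11 fell and 0 rose with strict peaks, when 66.5% of all genes fell, with a median of −2.09 peaks, the median over all genes being −2.10. On equal-length lists, where 3.45% of all genes fell and 12.3% rose, 1 fell, DUSP10 (−2.24 peaks, adjusted p = 0.0187, exact permutation, lower in 7 of 7 lines), a phosphatase of the JNK and p38 kinases. Another 2 rose, SPRED3 (3.05, adjusted p = 0.0253, higher in 6 of 7 lines) and IER3, an immediate early gene (2.95, adjusted p = 0.0157, higher in 7 of 7 lines). Of 29 genes of the cascade itself, from receptors to the ELK factors, 19 fell and 0 rose with strict peaks (66.5% of all genes fell), with a median of −2.33. On equal-length lists, against the same 3.45% and 12.3%, 0 fell and 1 rose, MAP2K2, which encodes the kinase MEK2 (3.71, adjusted p = 0.00338, higher in 7 of 7 lines).

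The genes whose counts ran most like the mean profile of the 9 loci over the 42 samples, among genes more than 1 Mb from each of them, were CELF1 (Pearson r = 0.944), FNBP4 (0.916) and STT3A (0.903), all on chromosome 11. The samples share line, list set and depth in this measure.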

How the data were processed

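ATAC-seq peaks were called per sample; Bowtie2, Picard, MACS2, limma and HOMER and the build hg38 are named in the submitters' processing notes without versions or roles. The deposited lists give each peak's fold enrichment ratio over background, −log10 p and −log10 q as the authors' caller wrote them. No read counts were used, so depth is known only through the background pileup, recovered by solving the deposited fold and −log10 p for whole pileups (99.9979% to 100% of peaks solved).

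Peaks were ranked by −log10 p within each list. Peaks with summits in a gene (RefSeq GRCh38.p14) or within 100 kb were counted. Treatment was tested by an exact two-sided permutation stratified by line, by limma 3.58.1 in R 4.3.3 on log2(peaks + 1) for 14 groups (genes with a mean of at least 1 peak), and on calls of 500 bp regions (overlap of at least 100 bp), each adjusted over all genes or regions at 0.05. The exact tests, the pileup recovery and limma's contrasts within and over the lines were tested on simulated data. So were the gene-end rank over the lines and the F test between untreated lines. Limma's test of a difference between lines in the response and the thinning were not. A fold on the log2(peaks + 1) scale understates changes of low counts. Promoters came from RefSeq; 5 of the 9 genes matched (not DUSP4, DUSP5, ETV4 or ETV5). Thinned lists were drawn down to 0.5 of a line's lowest background and peaks kept at a −log10 p of 5; this, strict lists with samples left out or with a replicate block, the gene-end rank and the untreated comparison were added after seeing the data. Named are the 9 loci and, for each, the gene-start or gene-end region called in most samples, the 2 regions with the largest excess of DMSO calls, and the 1 with the largest excess of FHT-1015 calls if at least 3; of the 2 gene lists at most 3 genes, by size of change; and the 3 genes most like the 9 loci. The loci, lists and rules were chosen with earlier results of these data known. Replicate numbers did not pair the samples. Regions' own sequences were not used here.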

Additional observations from a re-analysis of the deposited data

Results flagged for a closer look

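SPRY2 was the only one of the 9 loci whose response differed between the lines by limma's F test on the 50000 strongest peaks (adjusted p = 0.0477). The log2 difference was −1.50 ± 0.34 (SE) in 92-1, where 2 of the 3 treated samples had the lowest background pileup of the series, and their part in the result was not tested apart from leaving the samples out. SPRY2 passed in 6 of the 42 omissions of a single sample and did not pass without 92-1 or without MV411. Without the first FHT-1015 sample of 92-1, 64.3% of all genes passed and so did 5 loci: DUSP5, DUSP6, SPRY2, SPRED1 and PHLDA1 (adjusted p from 3.44e-06 for PHLDA1 to 0.00386 for SPRED1).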

How the results depend on the processing

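Over the 7 lines, members that passed as lower numbered 0 on the 50000 strongest peaks and 1 on the 25000 strongest (ETV5). They numbered 9 on strict peaks, 8 on thinned peaks and 1 without 92-1 (SPRY4). Leaving out single samples gave 0 to 1, and 0 passed as higher in every alternative run of the exact test. Limma's mean contrast over the lines gave 1 lower and 1 higher on the 25000 strongest peaks. Of 18040 genes it called 1137 lower and 4647 higher there. Without FHT-1015 replicate 1 of 92-1 it gave 2 lower, and 2909 of 19368 genes were lower. Of all genes, 690 were lower, against 408 (100000 strongest), 13288 (strict), 0 (all deposited), 421 (50 kb window), 9798 (thinned) and 413 (without MV411), with 608 to 868 without single samples. Those higher were 2456, against 4294 (25000 strongest), 698 (100000), 0 (strict), 0 (all deposited), 1266 (50 kb), 1 (thinned) and 1097 (without MV411), with 2104 to 3253 without single samples. With strict peaks all 9 stayed lower without any single sample, and 5 without MV411. DUSP4 reversed from 0.10 to −3.05 (strict) and −2.78 (thinned), DUSP6 from 0.05 to −3.05 and −2.50, and ETV5 from 0.48 to −0.67 (25000 strongest), −2.33 (strict) and −2.06 (thinned). In 92-1 SPRED1 and PHLDA1 reversed to 0.12 and 0.11 (log2) on the 100000 strongest.

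Within lines, 5 lower calls became 3 (25000 strongest), 0 (100000), 12 (strict), 0 (without 92-1) and 2 to 6 without single samples, and 0 higher calls became 2 (25000 strongest; SPRY2 and ETV4 in MV411). The replicate numbers did not pair the samples: correlations of same-numbered deviations ran from −0.066 to 0.14. With the replicate number as a block the 5 calls stayed 5, and with strict peaks and the block there were 22 lower calls and 4 loci that differed between lines, as 50.4% of all genes did. Loci that differed between lines numbered 1, but 0 on the 100000 strongest, strict, all deposited and thinned peaks, with a pseudocount of 0.5, without 92-1 and without MV411, and 0 to 5 without single samples. Lost regions numbered 51, against 24 in thinned lists and 51 to 66 without single samples; gained ones 2, against 11 (all deposited), 6 (50000 strongest), 1 (overlap of 250 bp), 1 (thinned) and 2 to 4. The 9 separated loci of MV411 were 0 on the 50000 strongest. The 1 stronger gene-end peak became 0 (genes with a peak in every sample), 5 (without 92-1), 0 (without MV411) and 0 to 3 without single samples. The cause was not tested.

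The lists hold no reads, and strict counts are limited in 92-1, where 2 treated samples had 2037 and 1412 strict peaks. Whether a strict peak not called there was closed or was missed at that depth was not tested. Lists of equal length trade this limit for another: the −log10 q of the peak at position 50000 ran from 1.4 to 18.7 over the lists. They therefore compare order and not openness.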
